A study of Mus musculus with 16 samples.

Results

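The HMG proteins are small, abundant chromatin proteins that change the shape of DNA and nucleosomes, and their 8 mouse genes Hmgb1, Hmgb2, Hmgb3, Hmga1, Hmga2, Hmgn1, Hmgn2 and Hmgn3 were examined here as places where DNA ends were found. The members were taken by name from the GENCODE M21 annotation of mm10, 8 of the 32093 protein-coding and long noncoding genes counted, and all 8 were found. Hmgb1 is also the gene whose product the study lowered. The measurement was BLISS, in which free DNA ends in fixed, permeabilised cells are blunted and joined to an adapter, copied by in vitro transcription and sequenced, so that what is counted is ligated DNA ends and not transcript levels. The cells were AB22, a mouse malignant mesothelioma line, carrying either pTRIPZ-shCTRL, a control hairpin (shCTRL), or pTRIPZ-shHMGB1, a hairpin against Hmgb1 (shHMGB1). Both lines had been infected at a multiplicity of 20 and selected with 4 μg/mL puromycin, and were then kept at 5% oxygen in serum free of tetracycline. Both also received 1 μM doxycycline, which switches the hairpin on, for 7 to 10 days before use, so the controls carried the vector and the drug too. Cells of both lines were synchronised in G1 and left unirradiated (0 Gy) or exposed to gamma rays of a caesium-137 source at a dose of 3, 5 or 10 Gy. Each combination of line and dose had 2 libraries, 16 altogether. The series' design text calls these 2 libraries biological replicates without saying how they were separated, and the p-values measure the spread between such libraries. Each line was a puromycin-selected population with a single hairpin against its target, so line and hairpin cannot be told apart.

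The 3 families act in different ways. HMGB proteins hold a pair of HMG boxes, which wedge into the minor groove and bend DNA, followed by an acidic tail that folds back on the boxes and touches histones. HMGA proteins bind the minor groove of AT-rich DNA through AT hooks, and HMGN proteins bind the nucleosome core itself and loosen chromatin. HMGB1 also leaves stressed or dying cells and acts as a danger signal, and in mesothelioma it is known as a growth-promoting factor.

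The libraries held 131430 to 1010888 ends on the main chromosomes, with a median of 805997 and a sum of 11380784. The smallest was shCTRL 3 Gy replicate 2, and the next held 392139 ends. The median was 505000 ends in the 8 shCTRL libraries and 853748 in the 8 shHMGB1 libraries. Counts of ends set side by side for the 2 lines below are not scaled for this, so equal counts are not equal levels. Levels below are in CPM, the ends in a gene scaled to the library's total of ends on these chromosomes, and densities divide that level by the length of the gene, its exons or its introns in kb (CPM per kb). A hairpin acts on RNA, so the number of ends in Hmgb1 does not check the labels. The cell type cannot be checked from breaks either: of 11 mesothelial marker genes 5 had enough ends for the test and 0 differed between lines or with irradiation by edgeR's quasi-likelihood test. The same held for 5 tested of 7 fibroblast genes, 3 of 6 blood cell genes, 1 of 2 epithelial genes and 2 of 2 endothelial genes.

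The HMGA genes and Hmgn1 were dense in ends, Hmgb1 was near the middle of all genes, and Hmgn2 was sparse. Pooled over libraries, the body densities were 1.22 CPM per kb in Hmga1, 1.2 in Hmga2, 1.10 in Hmgn1, 0.708 in Hmgb2, 0.517 in Hmgb3, 0.423 in Hmgn3, 0.312 in Hmgb1 and 0.112 in Hmgn2. The median protein-coding gene had 0.295, with quartiles of 0.193 and 0.499. Hmga1, Hmga2 and Hmgn1 stood at the 94.3rd, 94.1st and 93.1st percentiles of 21938 protein-coding genes, while Hmgb1 stood at the 53.2nd and Hmgn2 at the 9.50th. As a mean over libraries the density was 1.24 ± 0.844 in Hmga1, 1.26 ± 0.375 in Hmga2 and 1.21 ± 0.852 in Hmgn1 (SD, n = 16), so these neighbours did not differ beyond their spread. Hmgb2, at 0.895 ± 0.915, and Hmgb3, at 0.497 ± 0.657, also overlapped them and each other.

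The number of ends behind these densities varied far more. Hmga2 had 1577 ends, Hmgb1 489, Hmgn3 177, Hmga1 100, Hmgn1 89, Hmgb2 33, Hmgb3 28 and Hmgn2 5. Hmgb2 had no end in 3 of 16 libraries, Hmgb3 in 7 and Hmgn2 in 11. Only Hmgb1, Hmgn3, Hmga2, Hmgn1 and Hmga1 passed the filter on low counts, and no test was made for the others.

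**Figure D1:**
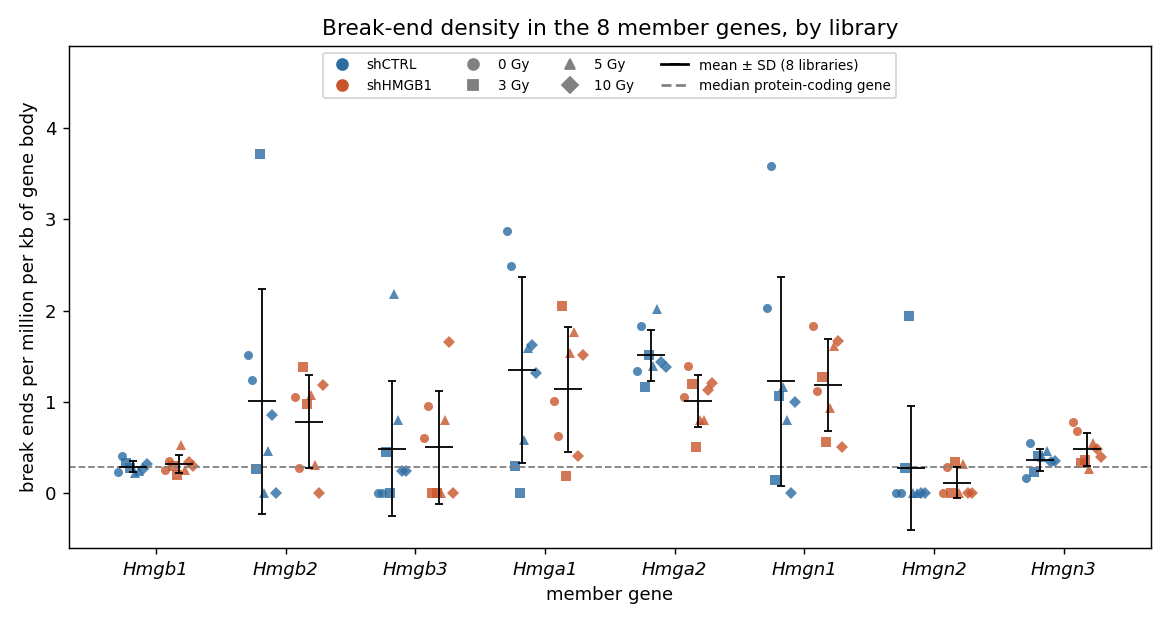
Density of break ends (CPM per kb of gene body, linear axis) in each member gene, 1 point per library, with hairpin by colour and dose by shape; black marks are the mean ± SD of 8 libraries of a line and the dashed line is the median protein-coding gene, 0.295. Hmgb1 and Hmgn3 lie near that median with little spread, Hmga2 lies above it in every library, and the short genes, with few ends, scatter widely.

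Of the HMGB genes the knockdown target held the most ends. Hmgb1 lies on the minus strand of chromosome 5 at chr5:149046702-149184489 (mm10), with an annotated body of 138 kb. Of its 10 transcripts, 9 lie within the last 6.81 kb, and 1 transcript alone extends the body by 131 kb upstream, over the noncoding RNA genes Mm2pr, Gm42787, Gm42788 and Gm43332 and the edge of Uspl1. Of the 489 ends 455 lay in that extension, 262 of them within Mm2pr, and 34 lay where the 9 short transcripts are. The density was 0.305 CPM per kb in the extension and 0.439 in the short span.

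Hmgb1 had 31.2 CPM in the lowest of the 8 shCTRL libraries, 37.7 at the median and 56.1 in the highest, and 28.0, 41.5 and 73.1 in the shHMGB1 libraries. The 2 ranges overlapped over most of their length. The mean was 40.0 ± 8.32 for shCTRL and 43.8 ± 13.7 for shHMGB1 (SD, n = 8 each). The highest value, 73.1, came from shHMGB1 5 Gy replicate 1, whose fellow library had 35.6. In the short span the shCTRL libraries held 10 ends and the shHMGB1 libraries 24, of which 11 were in shHMGB1 10 Gy replicate 1. Those levels were 2.32 ± 2.70 and 3.20 ± 3.80 CPM (SD, n = 8 each), a difference well inside the spread. The most 5′ 5 kb of the body, which borders Uspl1, held 28 ends in shCTRL and 13 in shHMGB1, and its highest density, 6.09 CPM per kb, came from 4 ends in the smallest library.

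The 3 genes whose log2 CPM over the 16 libraries correlated most with that of Hmgb1 were Dnajc19 (Pearson r = 0.761), Cldn14 (0.720) and Arl3 (0.717). They are the highest of 12847 compared, each has only 7.75 to 11.4 ends per library on average, and all points share the libraries' depth.

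Hmgb2 (chr8:57511907-57515999, plus strand) and Hmgb3 (chrX:71555918-71560676, plus strand) code for the close relatives of HMGB1, HMGB2 being the form of dividing cells and HMGB3 that of stem and progenitor cells. Of their ends, 31 of 33 and 24 of 28 were exonic, although exons make up 73.4% and 46.9% of the bodies. All 3 HMGB genes have near the end of their coding sequence a run of purines (A or G only) of at least 25 bases, which codes for the acidic tail, and most of the ends in the coding sequence of their main transcripts lay in the bases before it. The stretches are shown because they hold 19 of the 31 exonic ends of Hmgb2, 23 of the 24 of Hmgb3 and 9 of the 27 of Hmgb1. Each is spliced coding sequence from the GENCODE M21 transcript with the longest coding sequence, 5′ to 3′ on the gene's strand, with the 150 bases before the run in lower case and the run in capitals.
Hmgb1 (chr5:149048771-149049759, mm10, minus strand, exons 4 and 5): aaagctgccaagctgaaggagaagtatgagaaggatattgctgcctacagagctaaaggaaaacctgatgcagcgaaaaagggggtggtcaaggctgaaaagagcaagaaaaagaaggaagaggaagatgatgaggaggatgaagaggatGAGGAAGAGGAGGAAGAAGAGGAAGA
Hmgb2 (chr8:57513411-57514096, mm10, plus strand, exons 4 and 5): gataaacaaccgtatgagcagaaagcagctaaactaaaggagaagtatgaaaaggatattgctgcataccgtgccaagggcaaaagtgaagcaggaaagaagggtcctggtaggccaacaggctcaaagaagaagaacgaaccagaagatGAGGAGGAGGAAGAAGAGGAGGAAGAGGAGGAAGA
Hmgb3 (chrX:71559197-71559797, mm10, plus strand, exons 4 and 5): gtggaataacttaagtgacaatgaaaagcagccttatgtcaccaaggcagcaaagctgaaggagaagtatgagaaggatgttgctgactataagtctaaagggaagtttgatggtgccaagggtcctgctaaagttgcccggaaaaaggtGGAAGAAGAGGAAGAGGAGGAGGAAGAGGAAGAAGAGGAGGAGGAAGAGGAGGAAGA

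The runs are 26 bases long in Hmgb1, 35 in Hmgb2 and 57 in Hmgb3. The 150 bases before them held 9 of the 11 ends that fall in the main Hmgb1 transcript, 19 of 28 in Hmgb2 and 23 of 24 in Hmgb3. The runs themselves held 0, 2 and 0 ends. The ends lay at 3 positions in 4 libraries for Hmgb1, at 11 positions in 10 libraries for Hmgb2 and at 14 positions in 8 libraries for Hmgb3. Both lines contributed, with 4 and 5 ends for Hmgb1 in shCTRL and shHMGB1, 9 and 10 for Hmgb2, and 9 and 14 for Hmgb3. For Hmgb3 a single library, shHMGB1 10 Gy replicate 1, gave 8 of the 23. The coding sequences of the other 5 members contain no purine run of 25 bases. The run and the window were chosen after the positions had been seen, so these counts are a description with no test.

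**Figure D2:**
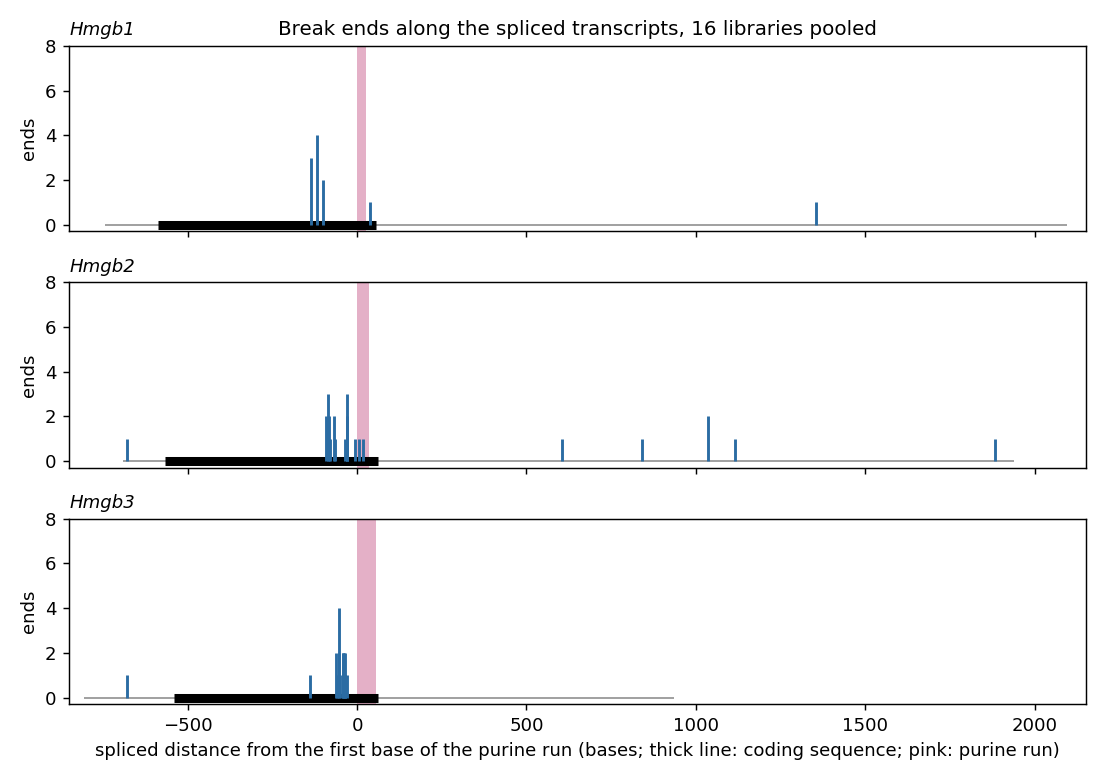
Break ends (16 libraries summed, linear axis) along the spliced main transcripts of Hmgb1, Hmgb2 and Hmgb3, by distance in bases from the first base of the purine run; the thick line is coding sequence, the thin line untranslated sequence and the pink band the run. The 150 bases left of the band hold 9 of 11 ends for Hmgb1, 19 of 28 for Hmgb2 and 23 of 24 for Hmgb3.

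The gathering was sharpest at an exon junction. In all 3 genes the run is in exon 5, the last of the main transcript, and starts 117, 96 and 74 bases from the exon's first base. The first 50 bases of that exon held 22 of the 28 ends of Hmgb3 and 11 of the 33 ends of Hmgb2, while the last 50 bases of the intron before it held 0 in both. In Hmgb1 the first 50 bases of exon 5 held 2 ends and the last 50 of exon 4 held 7, of which 4 were at its very last base. Part of the transcript sequence of these genes is present in other genes: of all 36-base words in the transcripts of Hmgb1, 24.0% also occur in transcripts of other annotated genes, 100 of them pseudogenes, with 20.5% for Hmgb2 and 30.6% for Hmgb3. The share was not computed for the stretches or junctions alone. How the deposited alignments placed reads among such copies is not given in the sources used here, and the part of these copies in the exonic ends was not tested.

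Over all genes, positions with an end were also denser beside coding purine runs than in coding sequence as a whole. Over 858 runs of at least 25 purines in 726 protein-coding genes, the 50 bases before the run held 42.7 positions with an end per kb, each position counted once for every library that hit it. The next 50 bases outward held 25.7, and the following ones 16.8 and 18. The runs held 24.2, and the 50 bases after them 31.2. All coding sequence held 10.6, and the flanks and bodies of 118 pyrimidine runs in 105 genes held 5.95 to 13.5. Counted in ends instead of positions, only the nearest bins were above the 40.0 ends per kb of all coding sequence: the 50 bases before purine runs held 50.1 and the 50 after them 42.7. The runs held 31.6, the bins farther before them 30.6, 19.3 and 21.7, and those farther after them 28.9, 22.3 and 16.7. No test was made, since bases of a gene are not independent.

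Both HMGA genes were among the dense members. Hmga2 codes for an embryonic AT-hook protein that is re-expressed in many tumours, and the long intron 3 of its human counterpart is known for chromosome breakpoints in benign mesenchymal tumours. In the mouse it lies at chr10:120361275-120476469 (mm10) on the minus strand and is 115 kb long. Its transcript with the longest coding sequence, 1 of 3 annotated, has 6 exons, and introns are numbered by that transcript below. The gene had 4.08 times the density of the median gene, and 4.65 times that of the 500 kb on each side, which held 0.259 CPM per kb. With the exons of all transcripts merged, introns had 1.21 CPM per kb and exons 1.12.

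Intron 3 of Hmga2, chr10:120374701-120462663 (mm10), makes up 76.4% of the gene and held 1325 ends, 84.0% of the total, at 1.32 CPM per kb. The first intron, with 34 ends, held 1.14, the second 0.642, the fourth 0.847 and the fifth 0.50. Within intron 3 the 25 kb between 20 and 45 kb from the start, a stretch chosen after seeing the profile, held 38.4% of the gene's ends in 21.7% of its length. That stretch held 3.09 ± 0.928 CPM per kb for shCTRL and 1.71 ± 0.576 for shHMGB1 (SD, n = 8 each). Its shCTRL libraries ran from 1.85 to 4.57 with a median of 2.86, and its shHMGB1 libraries from 0.930 to 2.43 with a median of 1.89.

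Part of the intronic ends recurred at fixed positions. The position chr10:120422233 in intron 3, 54.2 kb from the start, held 64 ends from 13 of 16 libraries, 32 from each line and at most 10 from 1 library. The position chr10:120439182, 37.3 kb from the start, held 37 ends, also from 13 libraries, 21 in shCTRL and 16 in shHMGB1. Of 6215580 positions with an end, 0.187% were hit in 13 or more libraries, and no position in another member was hit in more than 4. These positions make up 4.06% and 2.35% of the ends of Hmga2, which had ends at 946 positions in all.

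**Figure D3:**
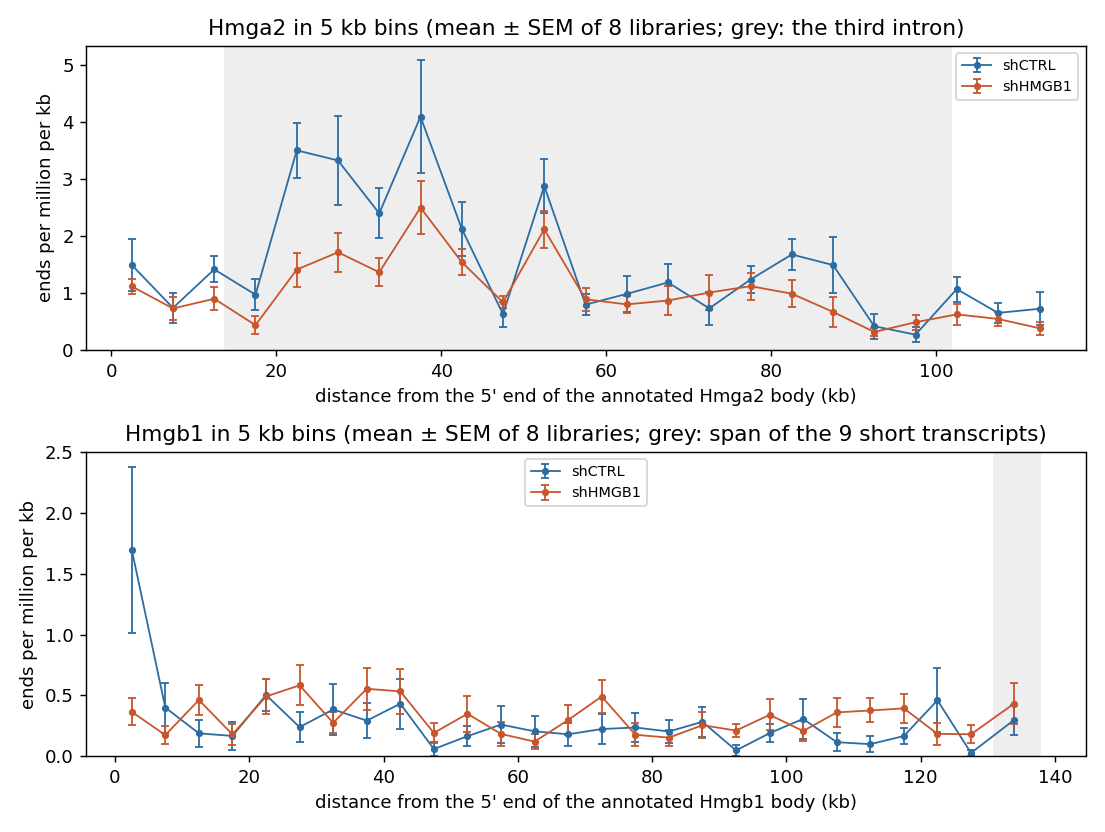
Break-end density (CPM per kb, linear axes) in 5 kb bins along Hmga2 and Hmgb1, by distance from the 5′ end of the annotated body; points are means over 8 libraries of a line and bars the SEM. In Hmga2 the bin from 35 to 40 kb is the highest, at 3.30 CPM per kb over all libraries. In Hmgb1 it is the first bin, at 1.03, which held 1.70 for shCTRL and 0.365 for shHMGB1. In shHMGB1 alone the highest Hmgb1 bin is that from 25 to 30 kb, at 0.583.

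Hmga2 also had ends at its promoter. The window of 1 kb on each side of the start held 58 ends, more than 97.8% of 21938 such windows, whose median was 7. The 250 bases before the RefSeq start (GRCm38.p6, chr10:120476470-120476719, minus strand) are shown because they held 16 ends and are unusually rich in C and T. They are given 5′ to 3′ on the gene's strand, with every run of at least 8 pyrimidines in capitals.
Hmga2 promoter: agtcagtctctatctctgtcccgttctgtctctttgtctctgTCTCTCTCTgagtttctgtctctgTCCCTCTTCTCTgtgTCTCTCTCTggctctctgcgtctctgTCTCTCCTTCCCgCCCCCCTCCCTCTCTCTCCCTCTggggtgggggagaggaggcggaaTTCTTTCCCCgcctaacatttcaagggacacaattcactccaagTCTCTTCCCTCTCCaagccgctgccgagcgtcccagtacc
C and T make up 70.8% of it, with 7 such runs, the longest of 23 bases. A lower share was found in 99.6% of 32851 RefSeq promoters, whose median is 50%. A skew of this size toward C and T or toward A and G was present in 0.825% of them. The 16 ends came from 7 libraries, 13 from shCTRL and 3 from shHMGB1, and 7 of them, from 3 libraries, were at 1 position 153 bases before the start. Promoter windows of 250 bases before to 50 after the start matched 7 of the 8 members; those other than Hmga2 held 0 to 6 ends, and 47.2% of all windows held none.

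Hmga2 was the member with the clearest difference between lines. The 8 shCTRL libraries had 155 and 212 CPM without irradiation, 134 and 175 after 3 Gy, 160 and 232 after 5 Gy, and 165 and 160 after 10 Gy. The 8 shHMGB1 libraries had 121 and 161 without irradiation, 138 and 58.6 after 3 Gy, 93.0 and 92.9 after 5 Gy, and 131 and 139 after 10 Gy. The mean was lower in shHMGB1 at all 4 doses, and 5 of its 8 libraries lay below the lowest shCTRL library, though the ranges overlapped between 134 and 161. How many of all genes separate to this degree was not counted. The means over doses were 174 ± 32.3 and 117 ± 33.1 (SD, n = 8 each). In the fit over all genes the log2 difference, shHMGB1 minus shCTRL, was -0.52 ± 0.15 (SE), with an unadjusted p of 0.000797 and an adjusted p of 0.146 by edgeR's quasi-likelihood test with Benjamini-Hochberg adjustment, so Hmga2 did not pass the threshold of 0.05. DESeq2 placed it just inside, at -0.54 with an adjusted p of 0.047, as did edgeR with each position counted once, at -0.50 and 0.0491. Without shHMGB1 3 Gy replicate 1 the difference was -0.70, with an adjusted p of 0.00374. Without shHMGB1 3 Gy replicate 2, the lowest library, it was -0.40, with 0.519. The 95% interval of the main estimate ran from -0.82 to -0.23.

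The surroundings of Hmga2 were measured in the same way. The 500 kb on each side held 0.261 ± 0.0534 CPM per kb for shCTRL and 0.266 ± 0.0265 for shHMGB1 (SD, n = 8 each), while the gene body held 1.51 ± 0.280 and 1.01 ± 0.287. In introns alone the log2 difference was -0.54 ± 0.15 with an adjusted p of 0.117 by edgeR. In exons it was -0.41 ± 0.48 with 0.939. Taken dose by dose it was -0.37 without irradiation, -0.39 after 3 Gy, -1.05 after 5 Gy and -0.27 after 10 Gy, with adjusted p-values from 0.232 to 1.00 by edgeR. Whether it changes with irradiation was tested directly: the interaction was -0.20 ± 0.34, with an adjusted p of 0.994.

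**Figure D4:**
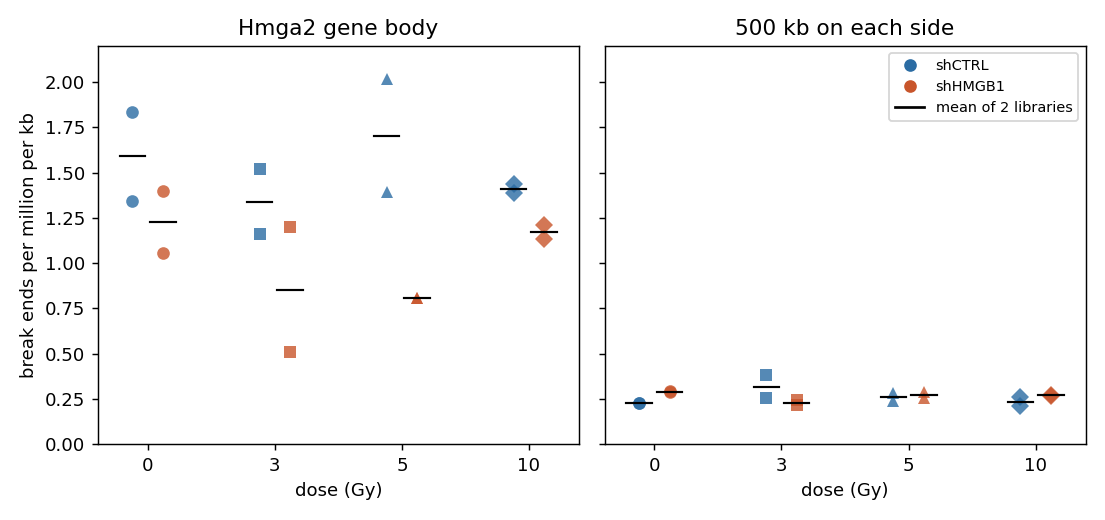
Break-end density (CPM per kb, linear axis from 0) by dose in the Hmga2 body and in the 500 kb on each side of it, 1 point per library, with black bars at the mean of 2 libraries. In the body the shHMGB1 mean is below the shCTRL mean at all 4 doses, and in the surroundings both lines lie between 0.210 and 0.380.

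Hmga1, at chr17:27556497-27563674 (mm10, plus strand), codes for the AT-hook protein most widely made in dividing cells. Of its 100 ends 88 were intronic, at 1.53 CPM per kb, against 0.496 in exons. The log2 ratio of exon to intron density was -1.77 ± 0.71, with an adjusted p of 0.0501 by edgeR. With 1 exon effect for all groups, a fit added after seeing the data, it was -1.60 ± 0.48, with 0.00496. Hmga1 shares 60.1% of its 36-base transcript words with Hmga1b and AI413582. AI413582 and Gm49774 overlap the annotated Hmga1 body, so words shared with AI413582 can be the same bases. How reads were divided between Hmga1 and Hmga1b is not known here, so the exonic level of Hmga1 is uncertain. The 2 unirradiated shCTRL libraries had 20.6 and 17.9 CPM, from 10 and 7 ends, and the 6 irradiated ones 0 to 11.6. These did not overlap, but how many of all genes separate in this way was not counted. In shCTRL no dose against 0 Gy passed for Hmga1 by edgeR, with adjusted p from 0.811 to 0.957. In shHMGB1 the unirradiated libraries had 7.23 and 4.54 and the irradiated ones 1.33 to 14.7, which overlapped them.

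Of the HMGN genes Hmgn3 had the most ends and Hmgn2 the fewest, and their library densities overlapped. Hmgn1, at chr16:96120618-96127729 (mm10, minus strand), had 89 ends, 58 of them exonic, at 1.58 CPM per kb in exons and 0.70 in introns. Its unirradiated shCTRL libraries had 14.4 and 25.5 CPM, from 7 and 10 ends, and the 6 irradiated ones 0 to 8.32. These did not overlap either, and the share of all genes doing so was not counted. In shCTRL no dose against 0 Gy passed for Hmgn1 by edgeR, with adjusted p from 0.811 to 0.927. In shHMGB1 the unirradiated libraries had 13 and 7.94 and the irradiated ones 3.63 to 11.9. Hmgn2, at chr4:133964738-133968650 (mm10, minus strand), had 5 ends in all, 5 in exons and 0 in 0.853 kb of introns, which allows up to 0.309 CPM per kb there.

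Hmgn3, at chr9:83109948-83146685 (mm10, minus strand), had 177 ends. Exons make up 5.09% of its body and held 16.4% of its ends. The exon density was 1.36 CPM per kb and the intron density 0.373, a pooled ratio of 3.66. Its shCTRL libraries had 6.19 CPM at the lowest, 13.8 at the median and 20.4 at the highest, and its shHMGB1 libraries 9.96, 16.2 and 28.9. The 2 libraries above all shCTRL libraries were the unirradiated shHMGB1 ones, at 28.9 and 25. All 6 irradiated shHMGB1 libraries lay below both, from 9.96 to 20.4, but how many of all genes do so was not counted. In shHMGB1 no dose against 0 Gy passed for Hmgn3 by edgeR, with adjusted p from 0.845 to 0.999.

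Exon and intron densities were compared in 1 fit per gene over all libraries. Of 12781 genes tested, 20.6% had more ends per kb in exons and 3.83% fewer at an adjusted p under 0.05, which is 24.4% in either direction. Of the 5 members tested, Hmgn3 passed, with a log2 ratio of 1.83 ± 0.59 and an adjusted p of 0.0104 by edgeR. The call was lost when replicate 1 of shCTRL at 3 Gy, replicate 2 of shCTRL at 5 Gy, or replicate 1 of shHMGB1 at 0 or 10 Gy was left out. The fellow library had no exonic end in each case, and the ratio was then 0.87 to 1.06 with an adjusted p of 1.00 by edgeR. Hmgn1 had 1.51 ± 0.62 with 0.0577, and 1.15 ± 0.43 with 0.0312 under 1 exon effect for all groups. Hmga2 had -0.18 ± 0.23 with 0.613. Hmgb1 had -0.58 ± 1.09 with 0.731, and neither unirradiated shCTRL library had an exonic end; with 1 exon effect it was 0.48 ± 0.38 with 0.372. Under 1 exon effect, 30.1% of genes were higher in exons and 3.34% lower, and of the members Hmgn3 and Hmgn1 were higher and Hmga1 lower. The difference of this ratio between lines, and between irradiated and unirradiated libraries, passed for 0 of the 5 members and 0.0% of all genes by edgeR, with 0 members at an unadjusted p under 0.05.

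**Figure D5:**
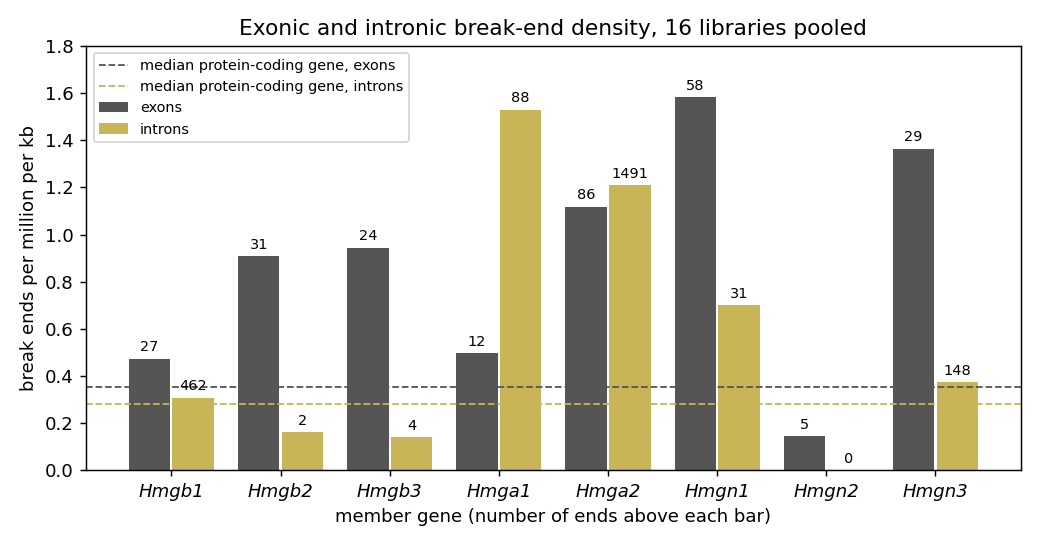
Pooled break-end density (CPM per kb, linear axis from 0) in exons and introns of each member, 16 libraries summed, with the number of ends above each bar; bars carry no error because libraries were pooled, and dashed lines are the medians of protein-coding genes. The exon bar is above the intron bar in Hmgb1, Hmgb2, Hmgb3, Hmgn1, Hmgn2 and Hmgn3 and below it in Hmga1 and Hmga2, and both are high in Hmga2.

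Between the lines, no tested member passed. Of all 12848 genes 0.218% were called by edgeR, 7 higher (0.0545%) and 21 lower (0.163%) in shHMGB1, and 0 of 5 members were among them. Hmga2 was the 1 member with an unadjusted p under 0.05 by edgeR, as had 1245 of the 12848 genes. It was also the 1 called by DESeq2, which called 34 genes in all. The log2 differences of the other members were 0.16 ± 0.20 in Hmgb1 (adjusted p = 0.847), 0.46 ± 0.32 in Hmgn3 (0.664), 0.59 ± 0.50 in Hmgn1 (0.753) and 0.10 ± 0.44 in Hmga1 (0.966), all by edgeR. For Hmgb1 the 95% interval ran from -0.23 to 0.55. The median of the 5 tested members was 0.16 and that of all tested genes 0.03.

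With irradiation, 3 doses averaged against 0 Gy, 0.0233% of genes were called by edgeR, 0.00778% higher and 0.0156% lower, and 0 of 5 members. Hmgn1 had the lowest p among the members: its log2 difference was -1.32 ± 0.52, with an unadjusted p of 0.0123 and an adjusted p of 0.601. Hmga1 had -0.56 ± 0.52 (adjusted p = 0.856), Hmgn3 -0.38 ± 0.37 (0.862), Hmga2 -0.21 ± 0.17 (0.821) and Hmgb1 0.00 ± 0.23 (0.999). DESeq2 called 0 genes, and 923 had an unadjusted p under 0.05 by edgeR. The 95% interval for Hmgb1 ran from -0.46 to 0.46, and that for Hmga2 from -0.55 to 0.12. The median of the 5 tested members was -0.38 and that of all tested genes -0.01.

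The 2 lines were then compared in their response to irradiation. Hmga1 had an interaction of 2.44 ± 1.02, with an unadjusted p of 0.0187 and an adjusted p of 0.936 by edgeR, and Hmgn1 had 2.01 ± 1.04, with 0.0555 and 0.946. Neither passed, and 0.0% of all genes did, with 674 genes at an unadjusted p under 0.05 and 0 called by DESeq2. In the 10 comparisons of single doses, 50 tests of members gave 0 calls by edgeR and 0 by DESeq2. By edgeR 5 had an unadjusted p under 0.05, and the lowest adjusted p was 0.232. Of all 12848 genes, 327 to 1039 had an unadjusted p under 0.05 in each of these comparisons by edgeR. Of all genes, 0.0156% were called between lines at 5 Gy, 0.00778% between lines at 3 Gy, in shCTRL at 10 Gy against 0 Gy and in shHMGB1 at 3 Gy against 0 Gy, all of them lower, and 0.0% in the other comparisons. The comparisons with 0 Gy share their 2 unirradiated libraries within a line. In exons only Hmga2 had enough ends, and in introns 4 members did. There 0 members were called between lines or with irradiation by edgeR. Only Hmga2 between lines in introns had an unadjusted p under 0.05, as had 953 of the 10725 genes tested there. Among all genes the shares were 0.0% in exons for both comparisons, and 0.131% between lines (0.0186% higher, 0.112% lower) and 0.028% with irradiation (0.00932% higher, 0.0186% lower) in introns.

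Other genes of the same biology were described from 4 lists. Of 29 further genes with an HMG box, such as the FACT subunit gene Ssrp1 and the Sox factors, 20 were tested, and 0 differed between lines or with irradiation by edgeR. Their median density was 0.279 CPM per kb, with Ubtf, which codes for the nucleolar factor of ribosomal RNA transcription, the highest at 1.90. Sox5 and Sox6 had the most ends in that list but densities of only 0.176 and 0.217. Exon density was higher in 5 of 19, beside 20.6% of all genes: Ssrp1, Sox5, Ubtf, Pbrm1 and Hmgxb3, with log2 ratios of 0.85 to 1.57. Of 22 linker histones, nucleosome binders and histone chaperones 11 were tested and 0 differed between lines or with irradiation. Exon density was higher in 6 of these 11, beside 20.6% of all genes, led by Anp32b at 2.86 ± 0.30, Supt16 at 1.95 ± 0.38 and Set at 1.82 ± 0.41, all with adjusted p under the threshold. Anp32b and Set code for histone chaperones with acidic tails, a feature of HMGB proteins too. Hira and Nap1l1 had the most ends in the list, at densities of 0.744 and 1.66.

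All 16 genes of genome folding, cohesin and condensin subunits, Ctcf and nuclear matrix proteins, were tested. None differed between lines or with irradiation by edgeR. Exons were denser in 8, from 0.84 in Pds5b to 2.15 in Smc1a on the log2 scale, and sparser in Hnrnpu at -1.01 ± 0.18, beside 20.6% and 3.83% of all genes. Hnrnpu, which codes for a nuclear scaffold protein, had 5.38 CPM per kb, above 99.3% of protein-coding genes. Its line difference was -0.53 ± 0.16 with an adjusted p of 0.194, and its level was 118 ± 35.3 CPM for shCTRL and 76.5 ± 15.4 for shHMGB1 (SD, n = 8 each). Stag1, with the most ends in this list, had a difference of -0.02 ± 0.15. Of 16 genes for receptors and partners of HMGB1 6 were tested and 0 differed between lines or with irradiation by edgeR. Nfkb1, at 0.537 CPM per kb, was the 1 of these 6 denser in exons, by 1.26 ± 0.24 on the log2 scale, beside 20.6% of all genes, and Tlr4, a receptor of HMGB1, had a density of 0.226. The median differences between lines in the 4 lists were 0.06, 0.09, 0.04 and -0.01, beside 0.03 over all tested genes, and those with irradiation were 0.00, -0.10, -0.04 and -0.14, beside -0.01.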

How the data were processed

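Each library was deposited by the authors as a list of intervals with break-end positions and counts of ends, unit counts, on mm10 per the submitters' processing notes. Trimmomatic 0.32, UMI-tools, BWA 0.7.5-r404, SAMtools and bedtools are named there; order and settings are not given in the sources used here, and strand is not kept. Ends were counted over GENCODE M21 bodies, exons (union of transcripts) and introns on the main chromosomes, 0.411% to 0.745% of ends lying on scaffolds and 0.217% to 0.478% on mitochondrial DNA. edgeR 4.0.16 (R 4.3.3) fitted 8 group means by the quasi-likelihood test, with TMM factors, a minimum count of 10 in filterByExpr and Benjamini-Hochberg adjustment over all genes, threshold 0.05. The exon to intron ratio had a term per library and an exon effect per group. DESeq2 1.42.0, other scalings, filters, counting rules, replicate blocks and each library left out were alternatives. Scripts were tested on simulated data. The 8 members and the lists were chosen with earlier results of these data known. The members are always named; of each list, genes past a test are named, and otherwise the 2 with the most ends. Counting precision covers counting error only.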

Additional observations from a re-analysis of the deposited data

Results flagged for a closer look

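In 4 of 16 sets of 8 libraries (8 genes, 2 lines), 1 library stood apart from the other 7 by Dixon's criterion. By chance about 1 set in 20 does so where values are normally distributed, which does not hold for the sets of Hmgb2, Hmgb3 and Hmgn2, whose libraries held 0 to 5 ends each. Hmgb1 had 73.1 CPM (ends scaled to the library total) in shHMGB1 5 Gy replicate 1, from 66 ends, where the next library had 48.8. Hmgb2 had 15.2 in shCTRL 3 Gy replicate 2, from 2 ends in the smallest library, where the next had 6.19. Hmgb3 had 10.4 in shCTRL 5 Gy replicate 1, from 5 ends, and the next 3.81. Hmgn2 had 7.61 in shCTRL 3 Gy replicate 2, from 1 end, and the next 1.08.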

How the results depend on the processing

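The depth limits the short members most: Hmgb2, Hmgb3 and Hmgn2, with 33, 28 and 5 ends, did not pass the filter and were not tested. No member was called between lines or with irradiation except Hmga2 in the settings named with its values (DESeq2, each position counted once, and without shHMGB1 3 Gy replicate 1, in bodies; the last 2 in introns, with adjusted p of 0.0333 and 0.00504). Its direction held in all 27 alternatives for bodies, from -0.70 to -0.30, the last with libraries thinned to 131430 ends (adjusted p = 0.593). The replicate block gave -0.52 with 0.0889, and a block within each line -0.42 with 0.855. Deviations of same-numbered libraries had weak correlations, all positive within a line (0.0248 to 0.0613, 12 pairs) and -0.0914 to 0.0300 across lines, below the 0.1 set for treating the numbers as pairs. The TMM factors of shCTRL were 0.933 to 0.951 in replicates 1 and 1.05 to 1.16 in replicates 2; whether same-numbered libraries of a line share a source was not tested.

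The count of genes called between lines in bodies, 28, was 67 with each position counted once, 11 thinned, and 7 with the replicate block within each line. It was 13 to 141 with 1 library left out: 17, 44, 13 and 17 without replicate 2 of shCTRL at 0, 3, 5 and 10 Gy, 15 without shHMGB1 0 Gy replicate 2 and 141 without shHMGB1 3 Gy replicate 1. With irradiation the count of 3 was 0 by DESeq2, 1 with at most 3 ends per position, 0 thinned and 19 with the block within each line, and 1 (without shHMGB1 0 Gy replicate 1) to 20 (without shHMGB1 3 Gy replicate 1) with 1 library left out. For the interaction it was 0 to 1, the 1 without shCTRL 0 Gy replicate 1. Single-dose comparisons gave 5 calls in all, and 1 by DESeq2, 3 with each position counted once, 2 with at most 3 ends per position, 1 thinned, 8 with the replicate block, 37 with the block within each line and 3 (without shCTRL 5 Gy replicate 2) to 63 (without shCTRL 3 Gy replicate 1) with 1 library left out. Between lines in exons the count of 0 was 1 with library totals, 14 with the replicate block and 0 to 3 with 1 library left out, the 3 without shCTRL 3 Gy replicate 2. In introns the count of 14 was 57 with each position counted once, 26 with the replicate block and 3 (without shHMGB1 0 Gy replicate 2) to 76 (without shHMGB1 3 Gy replicate 1) with 1 left out, with 35 and 34 without replicates 1 and 2 of shCTRL at 3 Gy. With irradiation the counts were 0 to 1 in exons, the 1 without shCTRL 10 Gy replicate 1, and 0 to 13 in introns with 1 left out. The count of genes with unequal exon and intron density, 3119, was 1828 without shCTRL 3 Gy replicate 1 and up to 2928 without another library. The cause of these shifts was not tested.

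Some estimates changed sign, none of them past the threshold. With irradiation Hmgb1 was -0.0111 by DESeq2, -0.00715 with its size factors, -0.0534 with library totals, -0.0180 with the replicate block and -0.0172 with the block within each line, and Hmga2 in exons -0.00321 with library totals and -0.20 with each position counted once. Hmgn3 in introns was 0.0415 with each position counted once. The exon to intron ratio of Hmgb1 was 0.63 without ends in overlapping genes and 0.48 with 1 exon effect. The first of these kept the full exon and intron lengths although ends in the overlaps were left out. It is therefore not comparable with the main ratio. The ratio of Hmga2 was 0.28 over its longest coding transcript, and its irradiation difference was -0.14 with each position counted once. With 1 library left out, the line differences ran from -0.51 to 0.99 in Hmga1, and from -0.58 to 0.73 in exons of Hmga2. In introns they ran from -0.0272 to 0.23 in Hmgb1 and -0.54 to 0.92 in Hmga1. The irradiation differences ran from -0.12 to 0.16 in Hmgb1 and -0.66 to 0.0818 in Hmgn3. In exons of Hmga2 they ran from -0.57 to 0.26, and in introns from -0.22 to 0.0622 in Hmgb1 and -0.57 to 2.61 in Hmgn3. The interaction ran from -0.00991 to 0.57 in Hmgb1 and -0.44 to 0.0153 in Hmga2. The line difference of the exon to intron ratio ran from -0.62 to 3.44 in Hmgb1, -0.36 to 1.28 in Hmga1, -0.27 to 1.79 in Hmga2, -1.57 to 0.0758 in Hmgn1 and -2.47 to 1.19 in Hmgn3. Its irradiation difference ran from -1.30 to 0.98 in Hmga1, -1.01 to 0.47 in Hmga2 and -3.52 to 2.54 in Hmgn3. The density of Hmgb1 fell to 0.144 CPM per kb without ends in overlapping genes, with the full length of the body kept as divisor. That fall is therefore no measure of the density outside the overlaps. Over the longest coding transcript of Hmgb1 the density was 0.430. The densities of Hmga2 and Hmgn3 held in 3 of 4 such alternatives, and those of Hmgb2, Hmgb3, Hmga1, Hmgn1 and Hmgn2 in all 4. Hmga2 overlaps 1700006J14Rik and 9230105E05Rik, and Hmgn3 overlaps Gm29054. The span of the short Hmgb1 transcripts, the purine runs and junctions, the 500 kb around each gene, the stretch from 20 to 45 kb and the promoter of Hmga2, and the fit with 1 exon effect were chosen after seeing the data.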
